A study of Mus with 15 samples.

Results

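The cytosolic ribosomal protein genes encode the structural proteins of the 40S and 60S ribosomal subunits. They were taken as the rows of the count table whose mouse symbol is Rpl or Rps followed by a number and at most 1 letter of a, x, l or y, together with Rplp0, Rplp1, Rplp2 and Rpsa, and only where the gene is protein-coding. This gave 81 genes of 55573 entries, 50 of the large subunit and 31 of the small subunit. Rpl6l and Rps4l carry matching symbols but are annotated as pseudogenes and were left out. Rps3a1 and Fau, which encode ribosomal proteins under other symbols, were kept apart as companions.

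RNA was sequenced from thymocytes of 6-week-old female C57Bl/6 x Foxp3-GFP mice, in which green fluorescent protein reports the regulatory T cell transcription factor FOXP3. All cells were live, TCRβ+ CD4+ CD8- and CD73-, a gate that keeps newly developing cells and leaves out recirculating ones. The 5 sorted populations were conventional CD4 single-positive cells (Bst2- CD25- Foxp3-), CD25+ progenitors (CD25+ Foxp3-), FOXP3lo progenitors (CD25- Foxp3lo), mature regulatory T cells (CD25+ Foxp3+, called mature Tregs) and Bst2+ cells (CD25+ and/or Foxp3+), with 3 biological replicates of each, numbered 40, 42 and 43. CD8-bearing thymocytes had been depleted before sorting, and the labels do not say whether a replicate is 1 mouse or a pool.

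A ribosome contains 1 copy of nearly every ribosomal protein, so these genes are usually expressed as a block, and their transcripts are among the most abundant of a lymphocyte. Most carry a 5′ terminal oligopyrimidine tract (TOP), through which mTORC1 controls their translation. Assembly of the subunits needs a second, separate set of nucleolar factors, the ribosome biogenesis genes, many of which are targets of MYC. In developing regulatory T cells, the CD25+ and FOXP3lo progenitors are the 2 populations from which mature Tregs arise.

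Libraries held between 10816064 and 23758157 counts. Foxp3 stood at 272 to 648 CPM (counts scaled to library size with factors from the trimmed mean of M values, TMM) in the FOXP3lo and mature Treg libraries and at 0.522 to 4.19 CPM in the conventional and CD25+ progenitor libraries, and Bst2+ libraries had 9.10 to 40.2 CPM. Il2ra, which encodes CD25, was at 1120 to 1178 CPM in mature Tregs, 281 to 295 CPM in CD25+ progenitors and 7.45 to 10.3 CPM in conventional cells. The FOXP3lo progenitors, sorted as CD25-, had 100 to 118 CPM of Il2ra, above all conventional libraries, and Bst2+ libraries had 163 to 308 CPM. The Bst2+ libraries stood apart. Their pairwise correlations of log2 CPM were 0.829 to 0.856, against 0.956 to 0.975 within the other gates, and their mitochondrial ribosomal RNA took 14.1% to 19.6% of counts against 9.51% to 11.7% elsewhere. Bst2 itself was at 50.3, 18.4 and 15.7 CPM in them, a range that overlaps the 11.3 to 18.3 CPM of the other gates. The common biological coefficient of variation, 1 value per fit, was 0.42 with these 3 libraries and 0.184 without them, so each comparison among the other gates is given in the fit to all 15 libraries and in the fit without them.

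Of the 81 genes, 78 passed the filter on low counts. Rpl10l, Rpl39l and Rpl3l, paralogs known from testis or muscle, did not pass. Rpl10l had 5 counts, all in 1 CD25+ progenitor library. Rpl39l had 6 counts spread over 4 libraries. Rpl3l had 30 counts, 22 of them in 1 Bst2+ library. The tested genes ran over nearly 3 orders of magnitude per length of gene model. The highest was Rplp1, an acidic protein of the ribosomal stalk, at 1488 CPM per kilobase (mean of 15 libraries), followed by Rpl8 at 762, Rpl23a at 721, Rplp0 at 647 and Rpl36 at 615 CPM per kilobase. The 5 lowest tested were Rpl32l at 1.68, Rps10 at 5.26, Rpl24 at 15.7, Rps27l at 19.7 and Rpl13a at 25.0 CPM per kilobase. The stalk base protein gene Rplp0 and its neighbours Rpl23a and Rpl36 in this order have overlapping library values. Reads were required to have a mapping quality of at least 10, so reads of a gene with a near-identical copy may have been discarded. In RefSeq 62 of the 81 genes have pseudogenes named after them, 319 in all. Rps10 has 4 of these, Rpl24 has 0 and Rpl13a has 1. The low levels of Rps10, Rpl24 and Rpl13a, whose proteins are in every ribosome, are uncertain as levels, and their cause was not tested. Over the 78 tested genes the number of named pseudogenes and the level per length had a Spearman coefficient of 0.01, a description across genes that share all libraries. Gene-model lengths include every annotated isoform, so levels per length are approximate.

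**Figure D1:**
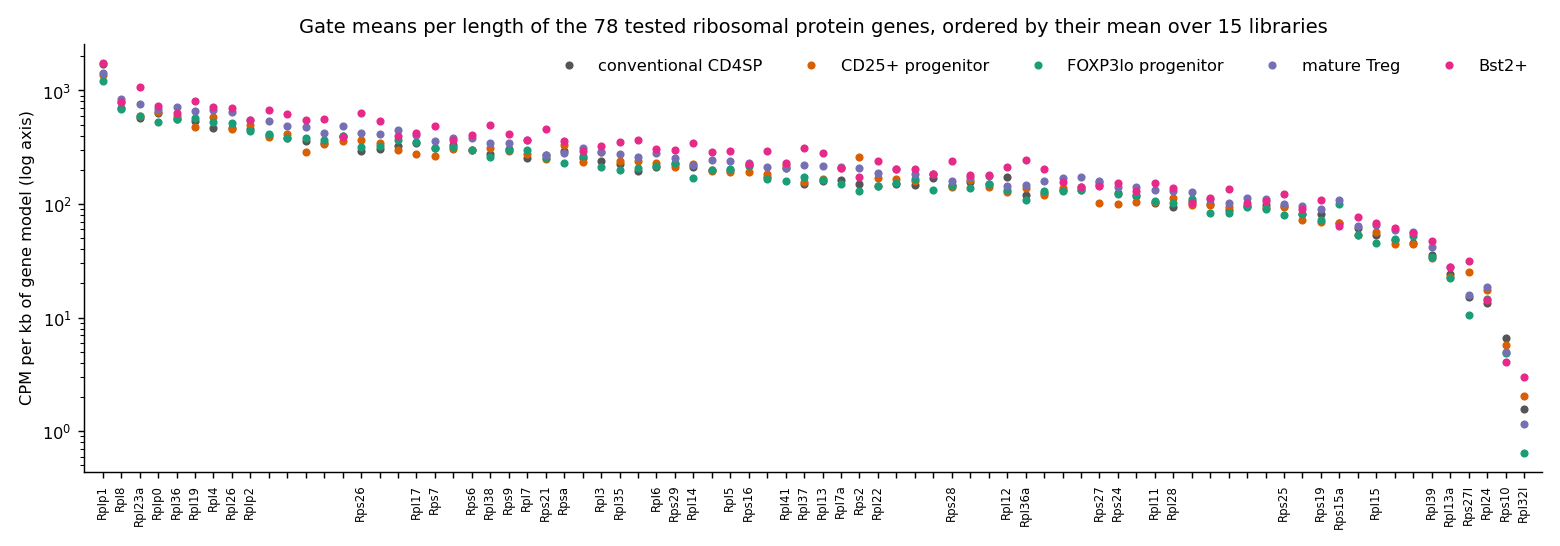
Mean CPM per kilobase of gene model in each of the 5 gates (points, coloured by gate, n = 3 libraries each) for the 78 tested ribosomal protein genes, on a log axis, ordered by their mean over 15 libraries, with some of the genes labelled. Rplp1 heads the order at 1488 CPM per kilobase and Rpl32l ends it at 1.68.

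The summed level of the 81 genes was alike in conventional cells and both progenitors and higher in mature Tregs. The sum was 27122, 33410 and 31409 CPM in conventional replicates 40, 42 and 43. It was 29891, 30147 and 33089 CPM in CD25+ progenitors and 30852, 29481 and 29995 CPM in FOXP3lo progenitors, all within the range of the conventional libraries. In mature Tregs it was 37195, 38517 and 35554 CPM, so that the lowest mature Treg library lay above the highest of the other 3 Bst2-negative gates. Bst2+ libraries held 44495, 46068 and 35033 CPM, the third of them below all mature Treg libraries. The order of the gate means was Bst2+ (41870 ± 5970 CPM, SD, n = 3), mature Treg (37090 ± 1480), CD25+ progenitor (31040 ± 1780), conventional (30650 ± 3210) and FOXP3lo progenitor (30110 ± 693). The first pair and the last 3 in this order did not differ beyond their spread. As a share of all counts, without TMM scaling, the genes took 3.58% ± 0.113 (SD, n = 3) in mature Tregs, 3.24% ± 0.17 in CD25+ progenitors, 3.19% ± 0.34 in conventional cells and 2.91% ± 0.0509 in FOXP3lo progenitors. On that scale the lowest mature Treg library, at 3.487%, lay just under the highest conventional one, at 3.493%. These sums are described without a test. The large-subunit genes summed to 1.58 to 1.67 times the small-subunit genes in every library, with no gate outside that range. In bulk RNA of sorted cells a different mixture of cells and a different amount of RNA per cell cannot be told apart.

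**Figure D2:**
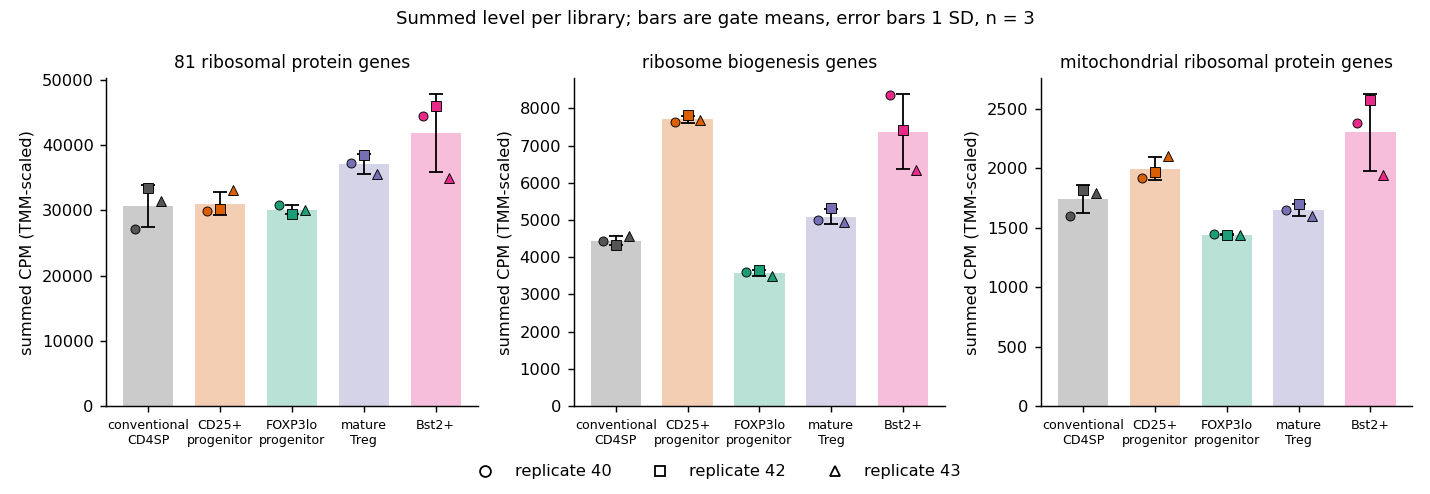
Summed CPM per library (points, shaped by replicate number) of the ribosomal protein genes, the ribosome biogenesis genes and the mitochondrial ribosomal protein genes in the 5 gates, with the gate mean (bar) and 1 SD (error bar, n = 3). Ribosomal protein genes were highest among the Bst2-negative gates in mature Tregs (35554 to 38517 CPM), and biogenesis genes in CD25+ progenitors (7624 to 7812 CPM).

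The higher level in mature Tregs was spread over most of the genes. Among the 4 Bst2-negative gates, the mean was highest in mature Tregs for 68 of the 78 tested genes, in CD25+ progenitors for 6, in conventional cells for 4 and in FOXP3lo progenitors for 0. The lowest mean was in CD25+ progenitors for 33, in FOXP3lo progenitors for 29, in conventional cells for 16 and in mature Tregs for 0. The ratio of the highest to the lowest gate mean had a median of 1.33 over the 78 genes. It was smallest for Rps21 (1.09), Rps28 (1.14), Rps29 (1.18), Rps9 (1.19) and Rps16 (1.21). Among the largest ratios were those of Rpl32l (3.13, at 0.0576 to 1.27 CPM), Rps27l (2.38), Rps2 (1.98) and Rps15a (1.59).

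**Figure D3:**
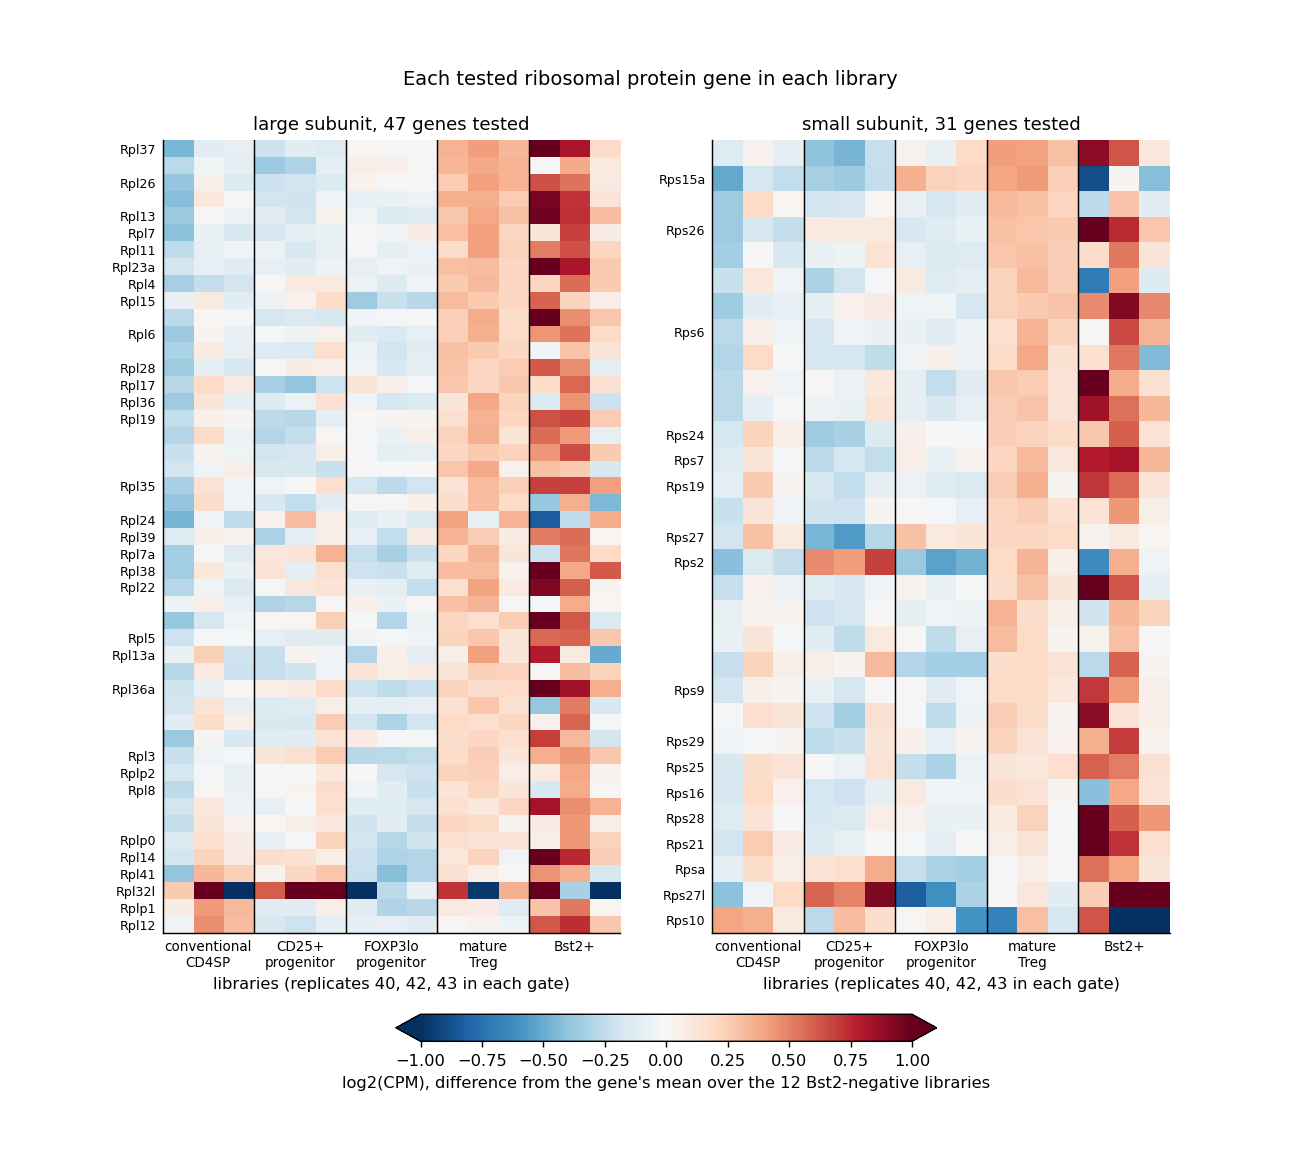
Log2 CPM of each tested gene in each of the 15 libraries, as the difference from the gene's mean over the 12 Bst2-negative libraries (colour), with large-subunit genes on the left and small-subunit genes on the right and some of the genes labelled. Mature Treg columns are above the mean for most rows, while among the Bst2-negative gates Rps2 and Rps27l are highest in CD25+ progenitors. Bst2+ replicate 43 is paler than Bst2+ replicates 40 and 42.

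Mature Tregs were first compared with conventional cells. These came from mice of the same age and were also CD4+ CD8-, but were sorted as CD25- and Foxp3-. The quasi-likelihood F test of edgeR, adjusted over 16069 genes by the Benjamini-Hochberg method and called at an adjusted p under 0.05, gave 15 of the 78 genes higher in mature Tregs and 0 lower, against 6.45% and 5.73% of all genes tested. The median log2 fold change of the 78 was 0.28, against -0.01 for all genes, and 71 of 78 were positive. Beside the count of 0, 2 genes (Rplp1 and Rpl12) had a lower level at an unadjusted p under 0.05, and limma-voom and DESeq2 also called 0 lower, with 26 and 25 higher. Without the Bst2+ libraries 54 were higher and 2 lower, against 15.1% and 15.3% of all genes. The 3 mature Treg libraries lay above all 3 conventional libraries for 46 of 78 genes and below them for 0, against 19.2% and 20.1% of all genes tested. Other markers moved with this comparison. Of 8 αβ T cell genes 7 were lower in mature Tregs, with a summed level of 3152 to 3224 CPM against 5201 to 5653 CPM in conventional cells (4163 to 4510 CPM in CD25+ and 4687 to 4843 CPM in FOXP3lo progenitors). Of 5 tested plasmacytoid dendritic cell genes 2 were higher, Irf8 and Tcf4, with a summed level of 84.2 ± 5.45 CPM against 36.5 ± 3.09 CPM (SD, n = 3), and the defining gene Siglech was at 0 in all 6 libraries. Of 6 proliferation genes 4 were lower, and of 6 genes of CD8 or double-positive thymocytes 2 were lower. The part of these in the result was not tested.

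Among the genes called were several of the large subunit. Rpl4 stood at 887, 948 and 975 CPM in conventional cells and at 1337, 1395 and 1290 CPM in mature Tregs, with no overlap (log2 fold change 0.52, SE 0.0822, adjusted p = 0.000294). Rpl7 rose by 0.52, Rpl26 by 0.48, Rpl28 by 0.46 and Rpl13 by 0.44, and Rpl37 by 0.57 at an adjusted p of 0.05. With the replicate number as a block, Rpl37 and Rpl13 were no longer called (adjusted p = 0.0689 and 0.0523). Of the small subunit, Rps15a rose by 0.66. Rpl5 and Rpl11, which form with 5S RNA the particle that stabilises p53 when ribosome assembly fails, rose by 0.28 and 0.40 (adjusted p = 0.039 and 0.0132). Rps6, the classic substrate of the mTORC1-S6 kinase pathway, had 419, 529 and 491 CPM in conventional cells and 564, 643 and 593 CPM in mature Tregs (log2 difference 0.32, adjusted p = 0.108 with all libraries and 0.000248 without Bst2+). Rpl22, whose loss is known to block αβ T cell development, had 0.38 at an adjusted p of 0.151, and 7e-05 without Bst2+. The libraries do not overlap between the gates for either gene.

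The count, though not the median, rested on few libraries: 3 were called without conventional replicate 40 or without mature Treg replicate 42, 7 without mature Treg replicate 40, 8 without mature Treg replicate 43, and 32, 23 and 28 without Bst2+ replicate 40, 42 and 43. The median was 0.20 to 0.33 in these fits. The call of Rpl4 held without any single library, that of Rps15a was lost without conventional replicate 40, and the other genes named above lost theirs without conventional replicate 40 and mature Treg replicate 42, among others. Left unscaled for composition (total counts only), 7 genes were called higher and 2 lower with a median of 0.17, and all genes moved by -0.11 on that scale.

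Against the 2 progenitors the direction was the same. Compared with CD25+ progenitors, 17 genes were higher in mature Tregs and 0 lower (6.78% of all genes higher and 6.26% lower). The median was 0.26 and 71 of 78 were positive, 2 genes were lower at an unadjusted p under 0.05, and limma-voom and DESeq2 called 22 and 28 higher and 0 lower. Without the Bst2+ libraries 50 were higher and 3 lower, against 15.9% and 16.8% of all genes. On total counts 9 were higher and 1 lower. The mature Treg libraries lay above all 3 CD25+ progenitor libraries for 47 genes and below for 3, against 19.3% and 21.2% of all genes. The count called fell to 5 and 9 without CD25+ progenitor replicate 40 and 42 and to 10, 6 and 11 without mature Treg replicate 40, 42 and 43, and was 32, 27 and 26 without Bst2+ replicate 40, 42 and 43. Among the genes called was Rps15a, at 419, 409 and 447 CPM in CD25+ progenitors and 691, 709 and 623 CPM in mature Tregs, with no overlap (0.67, SE 0.156, adjusted p = 0.00747). Rps27 rose by 0.63, Rpl17 by 0.56, Rpl26 by 0.52, Rps24 by 0.49, Rpl19 and Rps7 by 0.45, Rpl7 by 0.42, Rpl11 by 0.38 and Rpl5 by 0.31. Leaving out single libraries kept the calls of Rps15a, Rps27 and Rpl17, while the call of each other gene here was lost without CD25+ progenitor replicate 40, and that of all but Rps24 also without mature Treg replicate 42.

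Compared with FOXP3lo progenitors, 8 genes were higher in mature Tregs and 0 lower (2.51% and 2.21% of all genes). All 78 fold changes were positive, with a median of 0.32 against 0.00 for all genes. No gene was lower at an unadjusted p under 0.05, while 46 were higher, and limma-voom and DESeq2 called 12 and 23 higher and 0 lower. Without the Bst2+ libraries 60 were higher and 0 lower, against 9.37% and 9.29% of all genes, and all mature Treg libraries lay above all FOXP3lo libraries for 66 of 78 and below for 0, against 15.4% and 15.9% of all genes. Among the 8 called were Rps2 (0.66), Rpl15 (0.55), Rpl3 (0.45), Rpl35 (0.44), Rpl6 (0.37), Rplp0 (0.37) and Rpl4 (0.34). Rpl3, a large-subunit protein at the peptidyl transferase centre, stood at 667, 671 and 681 CPM in FOXP3lo progenitors and at 918, 958 and 883 CPM in mature Tregs, far beyond the spread of either gate (SE 0.0722, adjusted p = 0.00101). Rplp0 was at 907, 844 and 896 CPM against 1158, 1125 and 1127 CPM (adjusted p = 0.0475). In the fit to all gates, leaving out any 1 of the 6 libraries compared left 1 to 3 genes called, leaving out conventional replicate 43 or CD25+ progenitor replicate 40 or 42 left 4 or 5, and leaving out Bst2+ replicate 40, 42 or 43 gave 31, 21 and 26. The median was 0.28 to 0.33 in these fits. Rpl3 stayed called without any single library, and the other 7 did not.

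The 3 comparisons with mature Tregs share those 3 libraries. Set to the summed count of the ribosomal protein genes in place of TMM, 0 genes were called higher and 3 lower against conventional cells, 1 and 3 against CD25+ progenitors, and 0 and 0 against FOXP3lo progenitors. On that scale the median of all genes moved by -0.28, -0.26 and -0.30, so the values above are those of a block relative to the rest of the transcriptome. The shares of all genes called on that scale are not given.

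The progenitors were then compared with conventional cells. In CD25+ progenitors 3 genes were higher and 2 lower (5.98% and 5.66% of all genes), with a median of -0.02, and in FOXP3lo progenitors 1 was higher and 2 lower (4.88% and 3.83% of all genes), with a median of -0.01. Without the Bst2+ libraries the counts were 13 higher and 9 lower for CD25+ progenitors (14.7% and 14.3% of all genes) and 5 and 10 for FOXP3lo progenitors (12.8% and 12.3%). The shares of ribosomal protein genes called were near or below those of all genes. Leaving out 1 library moved the counts called to 2 to 11 for CD25+ progenitors and 0 to 5 for FOXP3lo progenitors, lowest without CD25+ progenitor replicate 42 and conventional replicate 42, and highest for both without Bst2+ replicate 40. On total counts the FOXP3lo comparison gave 0 higher and 5 lower with a median of -0.12, a shift that all genes shared (-0.11).

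A few genes departed from the block in CD25+ progenitors. Rps2 (chromosome 17, 24718116 to 24721929, plus strand, GRCm38), a protein of the mRNA entry side of the small subunit, stood at 247, 300 and 281 CPM in conventional cells, 459, 443 and 531 CPM in CD25+ progenitors, 256, 229 and 238 CPM in FOXP3lo progenitors and 380, 418 and 345 CPM in mature Tregs. The CD25+ progenitor libraries lay above those of all other Bst2-negative gates. Rps2 rose by 0.79 over conventional cells (SE 0.17, adjusted p = 0.00419) and by 0.99 over FOXP3lo progenitors (adjusted p = 0.000426), and both calls held in every alternative fit. RefSeq names 12 pseudogenes after Rps2, so its absolute level is uncertain. Rpl4 rose by 0.32 and Rpl3 by 0.27 over conventional cells (adjusted p = 0.0147 and 0.0176), calls that were lost without conventional replicate 40 or CD25+ progenitor replicate 42 or 43.

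Lower in CD25+ progenitors than in conventional cells were Rps27 and Rpl12. Rps27 (chromosome 3, 90212522 to 90213651, minus strand), a zinc-binding protein of the small subunit, stood at 127, 177 and 154 CPM in conventional cells and fell to 105, 97.6 and 119 CPM in CD25+ progenitors (-0.51, SE 0.112, adjusted p = 0.00538), while FOXP3lo progenitors had 177, 154 and 157 CPM and mature Tregs 167, 167 and 165 CPM. The call was lost without conventional replicate 42. Rpl12, part of the stalk base, stood at 504, 712 and 639 CPM in conventional cells and at 461, 447 and 482 CPM in CD25+ progenitors (-0.42, adjusted p = 0.0257). That call was lost on leaving out any of 5 libraries, conventional replicates 42 and 43 and each of the CD25+ progenitors.

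In FOXP3lo progenitors Rps15a (chromosome 7, 118104372 to 118116188, minus strand) was the gene called higher than in conventional cells, and Rplp1 and Rpsa were those called lower. Rps15a stood at 369, 470 and 445 CPM in conventional cells, 419, 409 and 447 CPM in CD25+ progenitors, 673, 617 and 613 CPM in FOXP3lo progenitors and 691, 709 and 623 CPM in mature Tregs. The gates with FOXP3 and those without did not overlap for Rps15a (FOXP3lo against conventional 0.57, SE 0.156, adjusted p = 0.0297). In Bst2+ cells it was at 284, 536 and 391 CPM. Rplp1 was highest of the Bst2-negative gates in conventional cells, at 741, 946 and 881 CPM, against 646, 573 and 580 CPM in FOXP3lo progenitors (-0.51, SE 0.117, adjusted p = 0.0091). Its stalk partners Rplp2 and Rplp0 had log2 differences of -0.04 and -0.26 in the same comparison (adjusted p = 0.938 and 0.136). Rpsa, which also serves as a laminin receptor precursor, stood at 839, 1011 and 930 CPM in conventional cells and 761, 717 and 703 CPM in FOXP3lo progenitors (-0.35, adjusted p = 0.0357, and 0.0536 with the replicate number as a block). All 3 of these calls were lost without conventional replicate 42 and without FOXP3lo replicate 42 or 43, and for Rps15a without any library of the 2 gates.

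**Figure D4:**
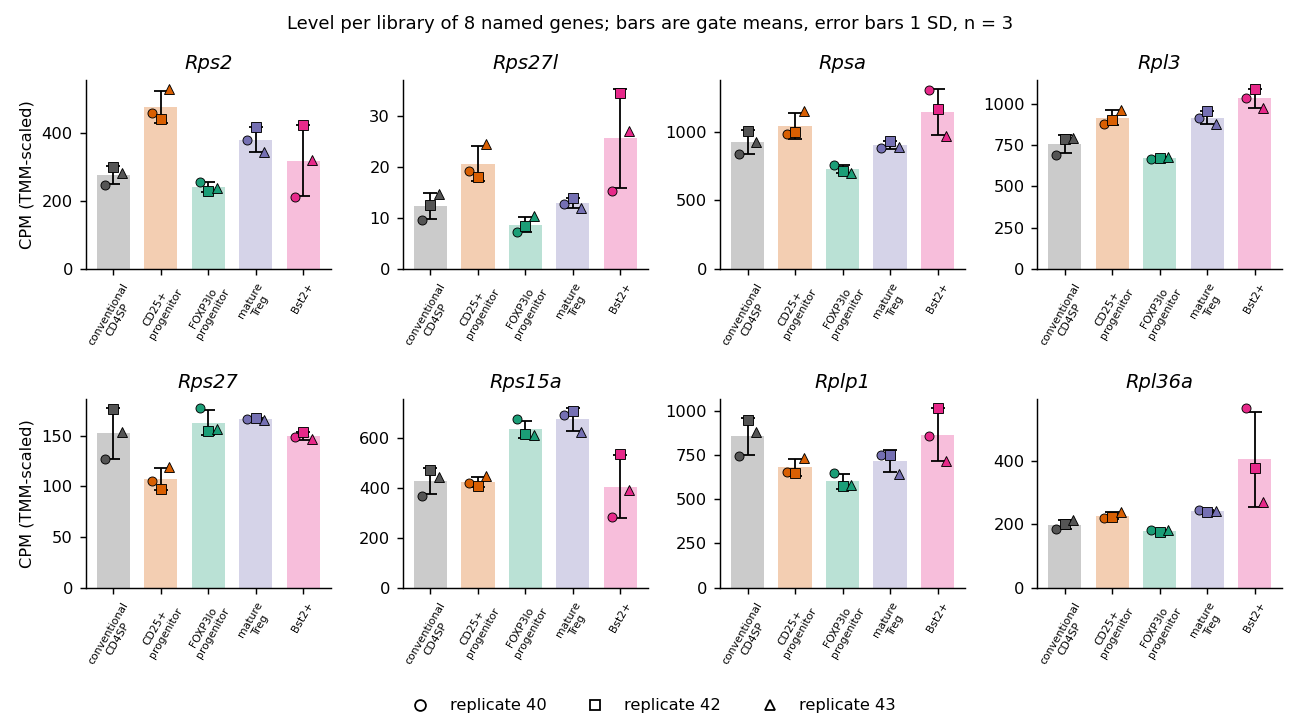
CPM per library (points, shaped by replicate number) of 8 ribosomal protein genes in the 5 gates, with the gate mean (bar) and 1 SD (error bar, n = 3). Rps2 is highest in the CD25+ progenitors (443 to 531 CPM), Rps15a is higher in the FOXP3lo and mature Treg libraries (613 to 709 CPM) than in conventional and CD25+ progenitor libraries (369 to 470 CPM), and Rpl36a spreads from 272 to 568 CPM within the Bst2+ gate.

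Between CD25+ and FOXP3lo progenitors 7 genes were higher and 5 lower (9.93% and 9.17% of all genes), with a median of 0.01. As shares of the 78 these counts from the fit to all libraries were at or below those of all genes. Without the Bst2+ libraries 22 were higher and 11 lower (19.9% and 19.7% of all genes). All CD25+ progenitor libraries lay above all FOXP3lo libraries for 30 genes and below for 18 (24.9% and 24.4% of all genes). In both of these counts the share of the 78 was above that of all genes for higher and below it for lower. The count called was 5 to 7 without any 1 of conventional replicate 43, CD25+ progenitor replicates 42 and 43, the FOXP3lo libraries and the mature Treg libraries. On total counts the split was 15 higher to 2 lower, where all genes moved by 0.10. The largest rise was in Rps27l (chromosome 9, 66946086 to 66949516, plus strand), a paralog of Rps27 known as a p53 target. Rps27l stood at 9.67, 12.6 and 14.8 CPM in conventional cells, 19.3, 18.1 and 24.6 CPM in CD25+ progenitors, 7.26, 8.44 and 10.4 CPM in FOXP3lo progenitors and 12.8, 13.9 and 11.9 CPM in mature Tregs. The CD25+ progenitor libraries were above all others of the 4 gates (1.25 over FOXP3lo, SE 0.29, adjusted p = 0.00481). Over conventional cells the difference of Rps27l was 0.75 and not called with all libraries (edgeR adjusted p = 0.118, and 0.00331 without Bst2+). Rps27 itself fell by 0.60 in the same comparison (adjusted p = 0.00082), so the pair of paralogs moved in opposite directions. Per length Rps27 was the more abundant of the pair, at 142 CPM per kilobase against 19.7 CPM per kilobase over the 15 libraries.

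Other genes higher in CD25+ than in FOXP3lo progenitors were Rpsa (0.52, adjusted p = 0.00102), Rpl7a (0.47), Rpl3 (0.45), Rpl41 (0.49) and Rpl15 (0.34). With the replicate number as a block Rpl41 and Rpl15 were not called (adjusted p = 0.0679 and 0.0649). Among those lower were Rps15a (-0.58) and Rpl17 (-0.36). The calls of Rps27l, Rps2, Rpsa, Rpl3 and Rps27 between the progenitors held in every alternative fit, and those of the other 7 were lost on leaving out at least 1 library, FOXP3lo replicate 40 for each of them.

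An interaction of CD25 and FOXP3 was taken over the 4 Bst2-negative gates. These gates are not a full cross of the 2 markers. Foxp3 itself was 1.04 higher (log2) in mature Tregs than in FOXP3lo progenitors (edgeR adjusted p = 0.0751, and 9.55e-05 without Bst2+). CD25 and the level of FOXP3 thus change together there and cannot be told apart. The interaction was the mature Treg minus FOXP3lo difference less the CD25+ progenitor minus conventional difference. It was positive for 75 of 78 genes with a median of 0.31, and 0 were called in the fit to all libraries by edgeR and by limma-voom (1.19% of all genes positive and 1.16% negative by edgeR). At an unadjusted p under 0.05 there were 25 genes, all positive, and DESeq2 called 5. The shares of all genes beside these counts are not given. Without the Bst2+ libraries edgeR called 35 positive and 0 negative, against 5.46% and 5.39% of all genes, among them Rplp1 (0.58), Rps19 (0.56), Rps27 (0.53) and Rpl12 (0.51). Rps2 and Rps27l had -0.13 and -0.18 and were not called.

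The ribosome biogenesis genes were set beside the ribosomal protein genes in the same comparisons. Of 52 ribosome biogenesis genes, 25 were higher and 0 lower in CD25+ progenitors than in conventional cells (median log2 fold change 0.52), where the ribosomal protein genes had 3 and 2 (median -0.02) and all genes 5.98% and 5.66%. In FOXP3lo progenitors 0 were higher and 25 lower (median -0.48), against 1 and 2 ribosomal protein genes and 4.88% and 3.83% of all genes. Between the 2 progenitors 40 of 52 biogenesis genes were higher in CD25+ cells and 0 lower (median 1.04), against 7 and 5 of 78 and 9.93% and 9.17% of all genes. In mature Tregs 2 were higher and 4 lower than in conventional cells (median -0.04), against 6.45% and 5.73% of all genes. Compared with CD25+ progenitors, 0 biogenesis genes were higher and 30 lower in mature Tregs (median -0.59), where 17 ribosomal protein genes were higher and 0 lower (6.78% and 6.26% of all genes). Against FOXP3lo progenitors 21 of 52 biogenesis genes were higher in mature Tregs and 0 lower (median 0.45), beside 8 and 0 ribosomal protein genes and 2.51% and 2.21% of all genes. The 21 fell to 3 when scaled to the ribosomal protein genes. In Bst2+ cells 28 biogenesis genes were higher and 1 lower (median 0.38), beside 46 and 1 ribosomal protein genes and 19.3% and 19.8% of all genes. Beside the counts of 0 here, edgeR gave at most 1 biogenesis gene in that direction at an unadjusted p under 0.05, limma-voom called 0, DESeq2 at most 1, and edgeR without the Bst2+ libraries at most 2. The difference between the 2 lists was not itself tested.

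**Figure D5:**
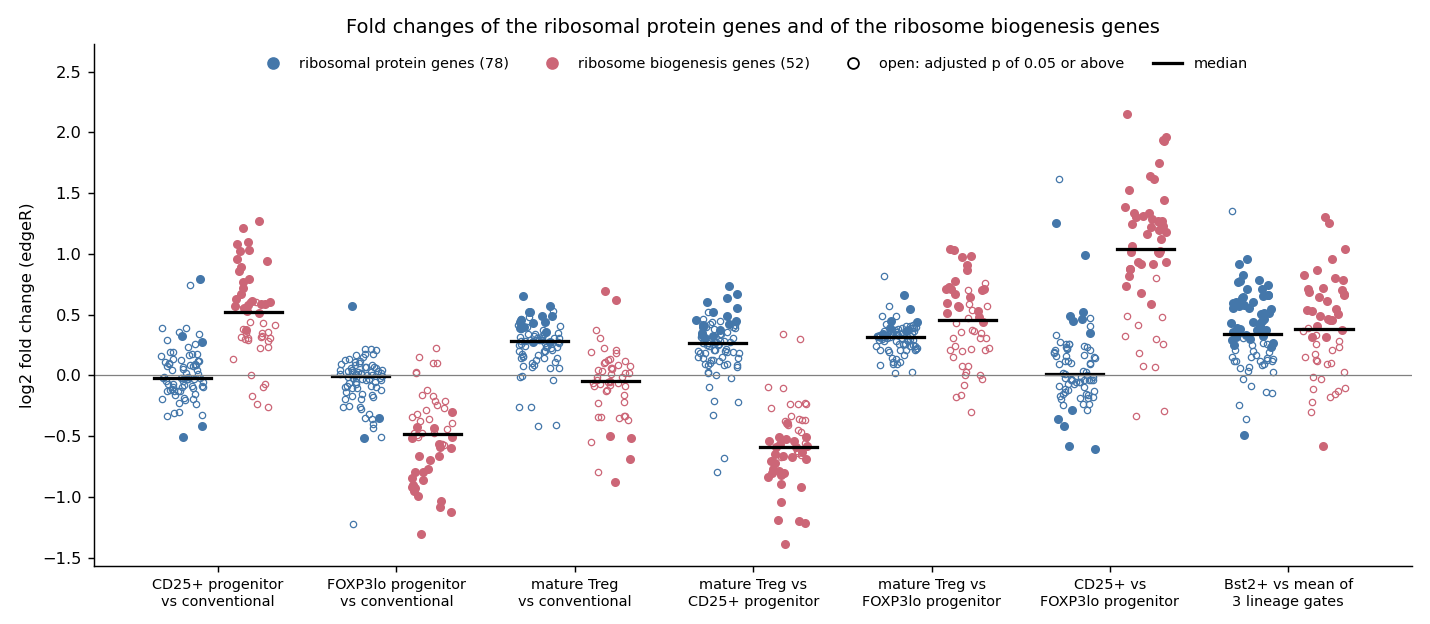
Log2 fold change of each tested ribosomal protein gene (blue, 78) and ribosome biogenesis gene (red, 52) in 7 comparisons of sorted gates, with filled points for an adjusted p under 0.05 and the median as a bar. The medians part most between CD25+ and FOXP3lo progenitors (0.01 and 1.04) and lie on opposite sides of 0 between mature Tregs and CD25+ progenitors (0.26 and -0.59).

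Npm1, a nucleolar chaperone whose mRNA carries a TOP tract, stood at 414, 434 and 443 CPM in conventional cells, 1009, 1015 and 964 CPM in CD25+ progenitors, 432, 442 and 432 CPM in FOXP3lo progenitors and 704, 726 and 654 CPM in mature Tregs. Utp20, of the small-subunit processome, stood at 80.1 to 94.3 CPM in conventional cells, 177 to 192 CPM in CD25+ progenitors, 44.7 to 52.5 CPM in FOXP3lo progenitors and 75.4 to 82.2 CPM in mature Tregs. No 2 of the first 3 gates overlapped for Utp20. The 75 mitochondrial ribosomal protein genes tested, which build the separate ribosome of that organelle, had 23 higher and 0 lower in CD25+ than in FOXP3lo progenitors (median 0.51) and 0 higher and 1 lower in mature Tregs than in conventional cells (median -0.08), against 0.01 and 0.28 for the cytosolic genes. For these counts of 0, edgeR gave 1 and 2 genes at an unadjusted p under 0.05, DESeq2 called 1 and 0, and limma-voom called 0 in both. With all libraries, 9.93% of all genes were higher and 9.17% lower between the progenitors. In mature Tregs against conventional cells the shares were 6.45% and 5.73%. Without the Bst2+ libraries edgeR called 50 mitochondrial genes higher and 1 lower between the progenitors (19.9% and 19.7% of all genes). In mature Tregs against conventional cells it then called 4 higher and 9 lower (15.1% and 15.3%). Among 6 proliferation genes, 5 were higher in CD25+ than in FOXP3lo progenitors, and their summed level was 488 to 606 CPM in CD25+ progenitors, 497 to 550 in conventional cells, 190 to 200 in FOXP3lo progenitors and 209 to 261 in mature Tregs. The 6 genes of CD8 or double-positive thymocytes summed to 211 to 257 CPM in CD25+ progenitors and 37.5 to 40.8 CPM in FOXP3lo progenitors, with 5 of 6 called higher. The part of cycling or less mature cells in these results was not tested.

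Of 22 translation factors encoded by TOP mRNAs, 14 were higher and 2 lower in CD25+ progenitors than in conventional cells (median 0.44). In mature Tregs 11 were higher and 2 lower than in conventional cells (median 0.34). Of all genes, 5.98% were higher and 5.66% lower in CD25+ progenitors, and 6.45% and 5.73% in mature Tregs. The list counts in this paragraph are from the fit to all libraries. Tpt1, a TOP mRNA that encodes the translationally controlled tumour protein, fell by 0.45 in CD25+ progenitors and rose by 0.35 in mature Tregs. Eef1a1, the main elongation factor gene, rose by 0.28 and 0.36 in the same comparisons. Of the ribosomal proteins outside the symbol rule, Fau stood at 385 to 518 CPM in conventional cells, 352 to 435 CPM in CD25+ progenitors, 548 to 625 CPM in FOXP3lo progenitors and 599 to 651 CPM in mature Tregs, and was lower in CD25+ progenitors than in FOXP3lo progenitors (-0.60, adjusted p = 0.00718) and than in mature Tregs (difference 0.72, adjusted p = 0.00273). Rps3a1 rose by 0.37 in mature Tregs over conventional cells (adjusted p = 0.0174). Rack1, a scaffold on the small subunit, had 0.22 in that comparison (adjusted p = 0.128). Myc stood at 56.5 to 68.8 CPM in conventional cells, 79.1 to 91.5 CPM in CD25+ progenitors, 53.3 to 56.5 CPM in FOXP3lo progenitors and 94.2 to 123 CPM in mature Tregs, and was higher in mature Tregs than in conventional cells (0.81, adjusted p = 0.000262). Of 23 genes of mTORC1 and MYC control, 8 were higher and 1 lower in mature Tregs than in conventional cells (median 0.13). Beside Myc, the genes higher were Mxd1 (2.41), Mxi1 (0.89) and Mxd4 (0.62), whose proteins oppose MYC, Eef2k (1.08) and Pdcd4 (0.46), which restrain translation, and the RNA-binding protein genes Larp4 (0.99) and Larp1 (0.52), and the lower one was Mxd3 (-2.36). The list thus holds activators and inhibitors, and its count has no direction for either. Of 10 factors that bind ribosomal protein gene promoters, 0 were higher and 1 lower (median 0.10). Of 12 genes of the RNA polymerase I machinery 0 were called in either direction (median -0.12), of 11 snoRNA host genes 0 were higher and 4 lower (median -0.41), and of 9 genes of the p53 checkpoint of ribosome assembly 1 was higher and 1 lower (median 0.17).

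Bst2+ cells were compared with the mean of the CD25+ progenitor, FOXP3lo progenitor and mature Treg gates. Of the 78 genes, 46 were higher and 1 lower (19.3% and 19.8% of all genes), with a median of 0.34 against -0.03 for all genes. All Bst2+ libraries lay above all 9 others for 14 genes and below for 0, against 7.65% and 10.5% of all genes. The largest rises among the genes called were in Rps27l (0.96), Rpl36a (0.92), Rps21 (0.83), Rps26 (0.78), Rpl37 (0.78), Rpl14 (0.77), Rpl23a (0.75), Rpl38 (0.71), Rps28 (0.71) and Rps7 (0.66), each with an adjusted p of 0.00266 or less. Rpl36a stood at 568, 378 and 272 CPM in Bst2+ replicates 40, 42 and 43 and at 177 to 245 CPM in the 9 libraries of the other 3 gates. Rps21, which varied least among the Bst2-negative gates, stood at 527, 348 and 237 CPM, against 191 to 230 CPM in those 9 libraries. Replicate 40 was the highest and 43 the lowest for both genes. The lower one was Rps15a (-0.49, adjusted p = 0.00739). Rplp0, Rplp1, Rpsa, Rps6, Rpl22, Rpl5, Rpl11, Rps19, Rpl39 and Rps25 rose by 0.25 to 0.52. The calls of Rplp0, Rps6 and Rpl39 were lost without Bst2+ replicate 42.

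Markers of other cells moved with this comparison, in which 19.3% of all genes were higher and 19.8% lower. All 6 proliferation genes and 5 of 6 genes of CD8 or double-positive thymocytes were higher, with summed levels of 1187 to 1476 CPM and 810 to 1306 CPM in Bst2+ libraries, against 190 to 606 CPM and 37.5 to 257 CPM in the other 3 gates. Rag1, which CD4 single-positive cells normally no longer express, was at 324 to 534 CPM in Bst2+ libraries. Of 6 genes of dendritic cells and macrophages 4 were tested and were higher, and the 6 summed to 234 to 427 CPM against 12.4 to 27.2 CPM. Lyz2, Csf1r and Adgre1 passed the filter on low counts only in the fit with the Bst2+ libraries, so their direction was largely fixed by the filter. Cst3, tested in both fits, rose by 1.83 (adjusted p = 1.85e-07). The 6 B cell genes summed to 3.55 to 20.4 CPM against 0.987 to 2.83 CPM. The plasmacytoid dendritic cell genes summed to 140 to 179 CPM against 48.3 to 88.2 CPM, with the defining gene Siglech at 0 in 2 of the Bst2+ libraries, the thymic epithelium and stroma genes to 7.57 to 40.7 CPM against 2.63 to 12.9 CPM, and the erythroid genes to 0 to 1.25 CPM. The part of these cells, of the mitochondrial RNA share and of the cycling state in the Bst2+ result was not tested. Set to the summed count of the ribosomal protein genes, 13 genes were higher and 10 lower in Bst2+ cells. The median of all genes moved by -0.34 on that scale. The shares of all genes called on it are not given, so these counts have no background to be read against.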

How the data were processed

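Total RNA libraries (SMARTer Stranded Total RNA-Seq Pico v2, per the labels' protocols) of 15 sorted thymocyte samples were read from 1 table of raw read counts per gene deposited by the authors. Per the file headers, counts came from featureCounts 1.6.2 on Ensembl 97 gene models of GRCm38, with read pairs, a mapping quality of at least 10 and strand setting 2. Per the submitters' processing notes, Trimmomatic 0.33 and HISAT2 2.1.0 preceded it, and featureCounts is named there as 1.4.6. Genes were named by matching coordinates to RefSeq GRCm38.p6 (36144 of 55573 entries named, all 81 members matched, 6 of them by a shared gene end).

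R 4.3.3 with edgeR 4.0.16 was used: filterByExpr, TMM, robust quasi-likelihood fits of 5 group means over 15 libraries, and Benjamini-Hochberg adjustment over 16069 genes, called at an adjusted p under 0.05. SE is that of the log2 fold change. Alternatives were other scalings and filters, limma 3.58.1, DESeq2 1.42.0, the groups compared alone, a replicate block and leaving libraries out. Shares of all genes called are given only for edgeR with TMM at the adjusted threshold, with all libraries and without Bst2+. The code of the test was checked on counts simulated with the same spread in all genes and gates. The spread of these data is unequal between gates, so the check gives no error rate for them. Replicate numbers recur in every gate, and the study's design gives 3 biological replicates of 1 sort, so a fit with the number as a block was made. Same-numbered libraries deviated together little (r -0.016 to 0.0423 over 30 pairs, against -0.0444 to 0.0349 over 60 other pairs). If replicates are not separate animals, p-values measure only the spread between these samples.

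Members and lists were chosen with earlier results of these data known. Named genes are, in each comparison, up to 10 called members with the largest change in each direction, members and companions fixed by their role, up to 3 called genes per companion list and direction, and those with the most extreme levels and ratios. Rag1, the other marker genes, the genes of the mTORC1 and MYC list beside Myc and those named for the interaction fall outside this rule and were chosen after their values were seen. No sequence table was used here, and a few genes are not reported here.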

Additional observations from a re-analysis of the deposited data

Results flagged for a closer look

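In the fit to the 4 Bst2-negative gates, the difference between CD25+ and CD25- gates was itself different in FOXP3-positive and FOXP3-negative cells for some genes. The test of the interaction called 35 of the 78 ribosomal protein genes there, all positive, against 5.46% of all genes. These gates are not a full cross of the 2 markers. Foxp3 was itself higher in mature Tregs than in FOXP3lo progenitors, so CD25 and the level of FOXP3 cannot be told apart. In the fit to all 15 libraries edgeR called 0, with 25 at an unadjusted p under 0.05. The median of the interaction was 0.31 on the log2 scale with all libraries and 0.30 without the Bst2+ libraries. Leaving out 1 more library gave 20 genes without conventional replicate 42 or CD25+ progenitor replicate 42, 22 without FOXP3lo progenitor replicate 42 or mature Treg replicate 42, 23 without CD25+ progenitor replicate 40 or FOXP3lo progenitor replicate 40, and 53 without conventional replicate 40. Every gene called in these fits was positive. Scaled to the summed ribosomal protein count, in the fit to all libraries, 0 were called and the median was 0.02.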

How the results depend on the processing

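All values are ribosomal protein genes called in either direction. Without the Bst2+ libraries the shares of all genes called rose too, in each of these comparisons. For mature Tregs against conventional cells they rose from 6.45% higher and 5.73% lower to 15.1% and 15.3%. The shares under the other settings are not given, so those counts have no background to be read against. For CD25+ progenitors against conventional cells (5 called), there were 10 with no filter on low counts, 19 with only the groups compared, 22 without the Bst2+ libraries and 8 with DESeq2. For FOXP3lo progenitors against conventional cells (3), there were 5 on total counts, 6 with no filter, 18 with only the groups compared and 15 without Bst2+. For mature Tregs against conventional cells (15), there were 9 on total counts, 25 with no filter, 54 with only the groups compared, 56 without Bst2+, 26 with limma-voom and 25 with DESeq2. Against CD25+ progenitors (17), these were 10 on total counts, 28 with no filter, 55 with only the groups compared, 53 without Bst2+ and 28 with DESeq2. Against FOXP3lo progenitors (8), they were 5 with upper-quartile factors, 24 with no filter, 66 with only the groups compared, 60 without Bst2+ and 23 with DESeq2. Between the progenitors (12), they were 39 with only the groups compared and 33 without Bst2+. The interaction (0) gave 6 with no filter, 35 with only the groups compared and without Bst2+, and 5 with DESeq2.

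With the replicate number as a block the counts, in the same order, were 5, 2, 15, 18, 9 and 10, with 46 for Bst2+ and 0 for the interaction, and the calls of 6 ribosomal protein genes were lost, 5 of them given with their results. Alternatives chosen after seeing the data were the block without Bst2+ (21, 16, 57, 55, 62 and 34, and 37 for the interaction) and scaling to the summed ribosomal protein count, which left 3, 4 and 0 for the comparisons with mature Tregs and 23 for Bst2+ (47 called). On that scale Rpl5 in mature Tregs against conventional cells turned to -0.0004, and in Bst2+ cells Rplp0 to -0.0903, Rps6 to -0.0118, Tpt1 to -0.0433, Myc to -0.0803 and Eif4a1 to -0.0632. The direction is set there by the scale itself.

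Leaving out 1 library gave 2 to 11, 0 to 5, 3 to 32, 5 to 32, 1 to 31 and 5 to 18 for the 6 comparisons in order, 42 to 59 for Bst2+ and 0 to 6 for the interaction. Without Bst2+ and 1 more library, these were 17 to 25, 9 to 20, 43 to 60, 42 to 57, 48 to 64, 24 to 39 and, for the interaction, 20 to 53. The cause of these movements was not tested.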
